A study of Mus musculus with 4 samples.

Results

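The wide regions of open chromatin that all libraries of this study share were taken from 4 ATAC-seq peak lists of mouse adipose progenitors. Peaks were merged across lists wherever they shared 1 bp or more, and an autosomal merged region was a member if it held a peak of every library and was at least 1000 bp wide. By this rule 1069 of 83319 merged regions were members, which is 1.28%. Of the 18734 autosomal regions with a peak in all libraries (common regions), members made up 5.71%, and the other 17665 are called narrower common regions here. The progenitors had been isolated fresh, with no further treatment, from the subcutaneous (SAT) and the visceral (VAT) fat of C57BL/6 mice aged 16 weeks. Each depot had 2 libraries, called SAT 1, SAT 2, VAT 1 and VAT 2. The sort of the cells and the number of animals per library were not stated in the labels, so p-values measure only the spread between these libraries, which may be technical. Members were chosen by their presence in all lists and by their merged width, so both are described here and not tested.

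The members were mostly a little wider than the minimum and ranked among the stronger peaks of each library, with a median score percentile between 78.3 (SAT 2) and 90.8 (VAT 2). The score percentile is the rank of a peak's deposited score within its own list, from 0 for the weakest to 100 for the strongest peak, taken for the highest peak of a library in a region. Less than the whole width was covered by peaks in all libraries: the bases they shared had a median total of 525 bp, or 46.0% of the width. In no member can they exceed the bases covered by SAT 2, the shortest list, which had a median of 565 bp. The shared bases did not always form a single stretch. Members were spread over all 19 autosomes, and no difference between the depots could be called with 2 libraries each.

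Adipose progenitors are mesenchymal cells of the fat stroma that can divide and form adipocytes. In ATAC-seq a transposase inserts sequencing adapters where DNA is free of nucleosomes, and a peak caller marks stretches where insertions accumulate. A single enhancer or promoter is usually open over a short stretch between flanking nucleosomes. Wider open stretches are known at active promoters and at closely spaced enhancers, and a wide peak can also arise where reads from repeated DNA are placed on one position of the assembly. Positions are given on build mm9 and counted from 1. Nearby genes and the DNA sequence of the members need an annotation and a genome of that build and were not analysed here. For the same reason the cell type on the labels was not checked against marker genes.

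Most members lay close to the width minimum. Their widths had a median of 1119 bp, with quartiles of 1047 and 1217 bp, and 37 members reached 1500 bp. Only 2 members, of 4567 and 4016 bp, were wider than 1822 bp. The narrower common regions had a median width of 511 bp. Members together spanned 1.24 Mb, or 11.7% of the 10.6 Mb of all common autosomal regions. At the threshold itself, 6 members were exactly 1000 bp wide and 6 common regions were 999 bp wide. Among the former was chr11:86570819-86571818, with score percentiles between 84.6 in SAT 2 and 94.4 in VAT 1. Among the latter was chr1:82287429-82288427, with percentiles between 62.4 in SAT 2 and 85.2 in VAT 2. The numbers of regions thus run through the threshold without a step.

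**Figure D1:**
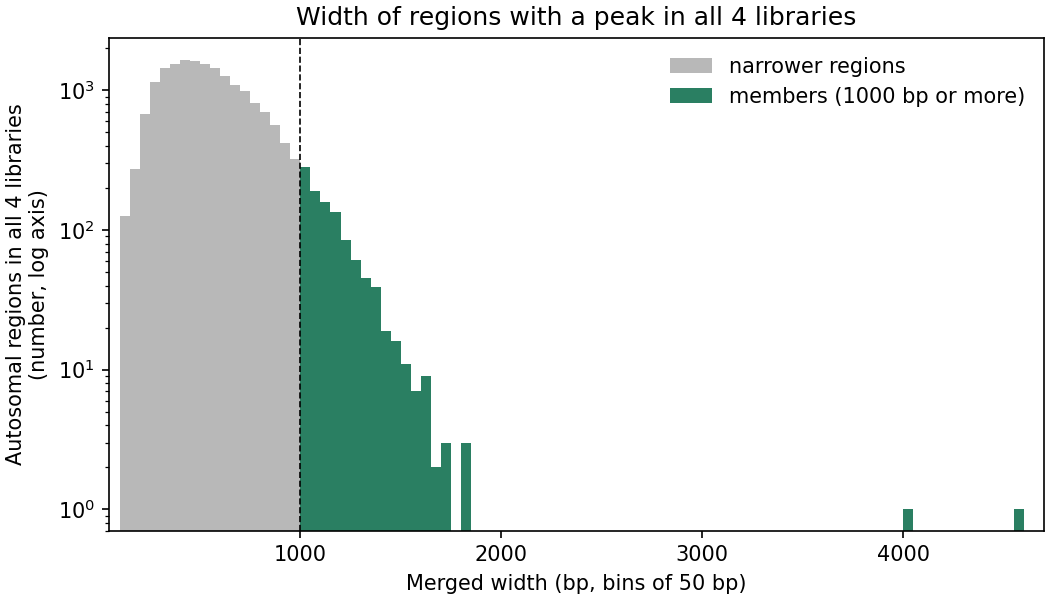
Number of autosomal regions with a peak in all 4 libraries (vertical log axis) by merged width in bins of 50 bp (horizontal axis), with the 1069 members in green. The numbers fall steadily from about the median of 511 bp of the narrower regions, and 2 members of 4016 and 4567 bp stand apart from the rest.

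Nearly all wide merged regions held a peak of every library, of whatever width. Of the 1091 autosomal merged regions of 1000 bp or more, 98.0% did so, against 18734 of the 80820 autosomal merged regions of any width. Merging the peaks of more libraries can only widen a region, so the share among wide regions is partly set by the merging. Width and presence are also the criteria that chose the members, so this is description only. Of the other wide regions, 20 lacked only a SAT 2 peak. SAT 2 had the shortest list, with 22845 peaks, against 56823 in SAT 1, 56907 in VAT 1 and 62279 in VAT 2. The lists hold no read counts, so sequencing depth is unknown. When SAT 2 was left out and a peak in the other 3 libraries was required, 1067 wide regions were found among 34489 common ones, and 1047 of the members overlapped one of them. Without VAT 2, the longest list, only 595 wide regions were found. The number of members therefore rested on VAT 2 more than on SAT 2.

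Few members were wide in every library on its own. The span from the first to the last peak of a library reached 1000 bp in all 4 libraries in 107 members (10.0%) and in none in 144 (13.5%). The members held 5911 peaks, a mean of 5.53 each, against 4.18 in narrower common regions. Of the 1069 members, 278 (26.0%) consisted of exactly 1 peak per library, 303 of 5 peaks, 241 of 6, 168 of 7 and 79 of 8 or more. Among the narrower regions 86.5% had exactly 1 peak per library. No single peak reached 1000 bp in 287 members (26.8%), and 490 (45.8%) had such a peak in 1 library. In 249 members (23.3%) the widest peak of one library spanned the whole merged region.

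VAT 2 gave the widest peaks in most members and SAT 2 the narrowest. The widest peak in a member had a median width of 861 bp for SAT 1 and 447 bp for SAT 2, and of 855 bp for VAT 1 and 1022 bp for VAT 2. A single peak of 1000 bp or more was present in 307 members in SAT 1, in 15 in SAT 2, in 255 in VAT 1 and in 619 in VAT 2. VAT 2 alone had the widest peak in 669 members. SAT 1 and VAT 1, which come from different depots, were close to each other on this measure. Covered bases followed the same order. The median share of a member's width covered by peaks was 83.7% in SAT 1, 49.4% in SAT 2, 82.6% in VAT 1 and 94.3% in VAT 2. In narrower common regions these medians were 83.4%, 50.5%, 83.1% and 91.7%, so each library had similar medians in members and in narrower regions.

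The bases covered by all libraries, together called the core here, were far fewer than the bases of the member. The core had a median total of 525 bp (quartiles 385 and 675 bp), or 46.0% of the width. In narrower common regions it was 209 bp or 45.8%. The longest unbroken stretch of the core had a median of 421 bp in members (quartiles 295 and 582 bp). A core of 500 bp or more was present in 588 members (55.0%) and one of 1000 bp or more in 20. In 461 members (43.1%) the core was split into 2 or more stretches, against 5.56% of the narrower regions. In 68 members it fell into 3 or more. The longest stretch was often off centre: its middle lay a median of 174 bp from the middle of the member (15.3% of the width), against 40 bp (8.67%) in narrower regions. At 400 bp to the right of that middle, SAT 1 peaks still covered 53.6% of members, SAT 2 peaks 17.6%, VAT 1 peaks 52.3% and VAT 2 peaks 64.4%.

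**Figure D2:**
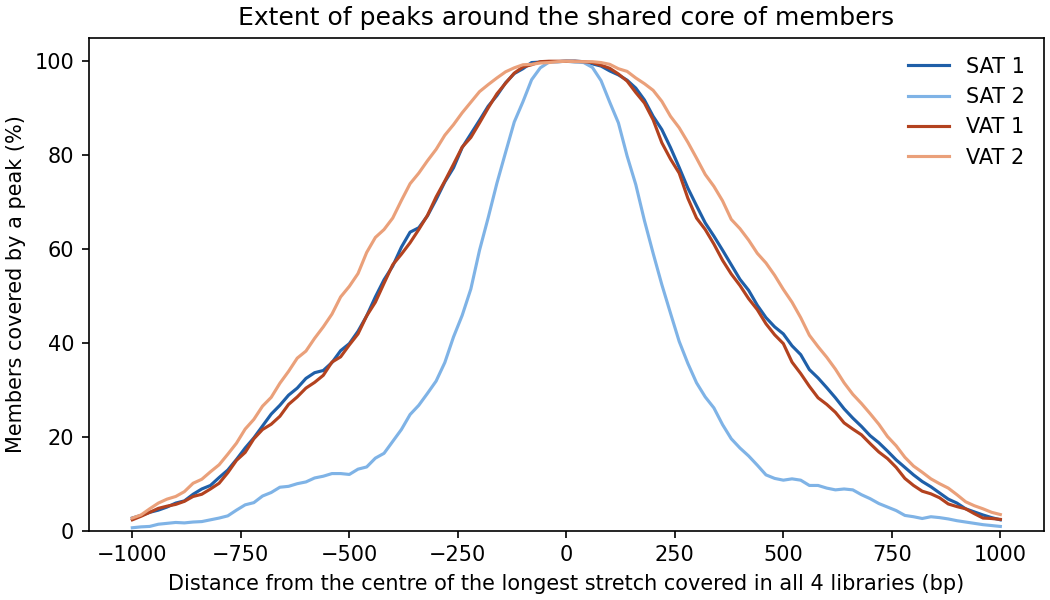
Percentage of 1066 members covered by a peak of each library (vertical axis) by distance in bp from the middle of the longest stretch covered in all 4 libraries (horizontal axis), where coverage is 100% by construction. SAT 2 peaks end closest to the middle and VAT 2 peaks farthest from it, and the lines of SAT 1 and VAT 1 nearly coincide.

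In 3 members (0.28%) and in 147 narrower regions (0.83%) no base was covered by all libraries, so that they were common only through a chain of overlaps. The 3 members were singled out with the values in view. The first lay at chr1:26743749-26745025, where the highest score percentile was 27.9 (in SAT 1) and the lowest 12.3 (in VAT 2). The others lay at chr14:58143484-58144559 and at chr4:155078760-155079864. In both, the SAT 2 peak was weak, at percentiles of 1.45 and 16.6. The longest peak of any library in the 3 was 944 bp, so their width exists only as a merged interval.

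Interruptions between peaks were short. Of the 1069 members, 791 (74.0%) held a gap between peaks of one library, 330 of them in 1 library, 275 in 2, 161 in 3 and 25 in all 4. Gaps had median lengths of 117 bp (SAT 1), 195 bp (SAT 2), 129 bp (VAT 1) and 112 bp (VAT 2). In narrower regions the medians were 108, 129, 116 and 107 bp. Outside SAT 2 the gaps of members and of narrower regions were thus within 13 bp of each other in median length.

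Where a pair of libraries was interrupted in the same member, their gaps often overlapped by at least a base. How often gaps placed at random would overlap was not tested. Among the 234 members interrupted in both SAT 1 and VAT 1, a gap of one overlapped a gap of the other in 186 (79.5%). For SAT 1 with SAT 2 this was 144 of 197 (73.1%), and for VAT 1 with VAT 2 it was 62 of 94 (66.0%). The lowest value was 55.6% (50 of 90), for SAT 1 with VAT 2. Between depots the 4 pairs gave 55.6% to 79.5%, a range that holds both values within a depot. In narrower regions the 6 pairs of libraries gave 73.3% to 86.4%. No base was a gap in all 4 libraries at once, because the merging would have split the region there.

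The widest member lay at chr1:24618415-24622981 and was covered almost end to end in every library. Each library had 1 peak there. Its length was 4567 bp for SAT 1 and 4547 bp for SAT 2, and 4556 bp for VAT 1 and 4563 bp for VAT 2, so both edges agreed within 12 bp. Its score percentiles were 75.7 in SAT 1, 89.1 in SAT 2, 77.7 in VAT 1 and 78.1 in VAT 2. SAT 2, in which most members ranked lowest, ranked highest here. It was not tested whether the DNA of this member is unique in the assembly.

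The second widest lay at chr17:39979996-39984011, and its core measured 3604 bp in 2 stretches. Its percentiles were lower, at 48.9 in SAT 1, 59.4 in SAT 2, 48.1 in VAT 1 and 52.0 in VAT 2. Again SAT 2 stood highest. SAT 1 had a single peak of 3847 bp, and the other libraries had a pair of peaks each. Whether the DNA of this member is unique in the assembly was not tested.

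The other 8 of the 10 widest were between 1665 and 1822 bp and more varied. The third, at chr9:94437533-94439354, had percentiles of 98.3 in SAT 1, 90.2 in SAT 2, 97.0 in VAT 1 and 90.5 in VAT 2. The fourth, at chr2:22444086-22445904, was also the member with the highest rank in its weakest library, with scores of 619, 711, 657 and 655 in SAT 1, SAT 2, VAT 1 and VAT 2. Its peak was a single one in each library, and only the 2 widest had a longer core than its 1558 bp. The fifth, at chr4:46463559-46465359, was instead broken into 4 peaks in SAT 1 and 3 in VAT 1, and SAT 2 covered only 298 bp of it. Its core was 292 bp. These neighbours in width thus differ more than 5-fold in core length.

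Of the remaining 5, those at chr3:135100822-135102528 and at chr13:58502844-58504549 had cores of 1270 and 828 bp. The one at chr7:91031495-91033194 had 10 peaks and a core of 450 bp, and its SAT 2 percentile was 36.9 against 85.7 in VAT 1. The others, at chr9:25059205-25060873 and at chr17:65962020-65963684, had cores of 707 and 762 bp. All 5 were interrupted in at least 2 libraries.

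**Figure D3:**
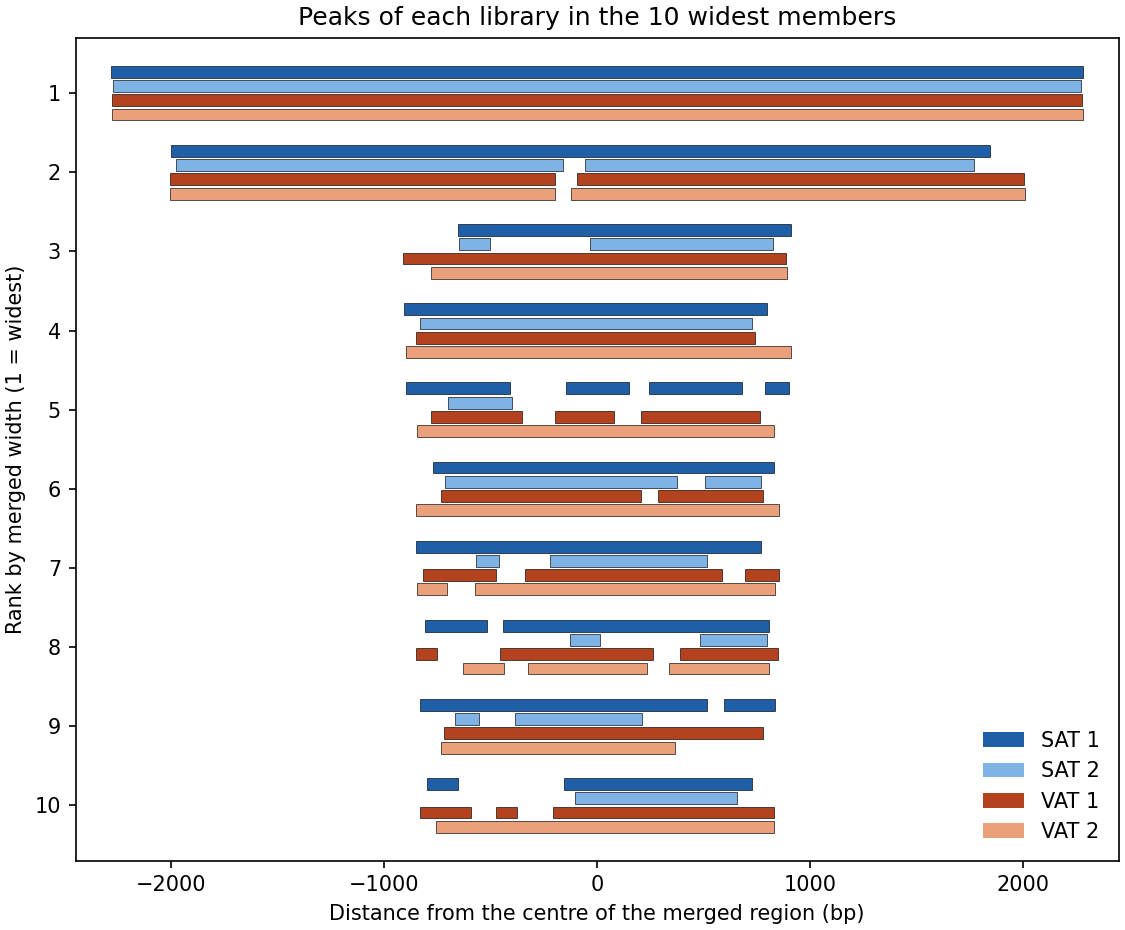
Peaks of each library (coloured bars) in the 10 widest members, drawn to scale by distance in bp from the centre of the merged region (horizontal axis) and ordered by width (vertical axis, rank 1 at the top). Ranks 1 and 4 hold 1 uninterrupted peak in every library, and rank 5 holds 4 peaks in SAT 1 but 1 in VAT 2.

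The most fragmented member, with 12 peaks, lay at chr6:108609353-108610803. It had 3 peaks in SAT 1, 3 in SAT 2, 4 in VAT 1 and 2 in VAT 2, and its core was 447 bp in 3 stretches. The next 4, with 10 peaks each, were the member on chromosome 7 named above and those at chr4:116299341-116300718, chr13:15554570-15555815 and chr11:6446314-6447500. Their cores were between 226 and 553 bp.

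At the other extreme, 11 members had a single peak of 1000 bp or more in every library. This set was formed after the values were seen. It holds the 2 widest members and those at chr2:22444086-22445904 and chr4:118219817-118221334. The latter was 1518 bp wide, with peak lengths of 1504 (SAT 1), 1509 (SAT 2), 1506 (VAT 1) and 1489 bp (VAT 2). Next came chr16:42875050-42876513, with a core of 1207 bp and percentiles of 96.4, 91.4, 96.5 and 97.3 in the same order. SAT 2 had the highest percentile of the 4 in 5 of these 11 members, and in 56 of all 1069. The set required a SAT 2 peak of 1000 bp or more, which only 15 members had. The SAT 2 ranks in it are therefore not independent of how it was formed. A further member of the 5 widest with 1 peak per library lay at chr18:76400772-76402178. It was 1407 bp wide, but its SAT 2 peak was 783 bp long.

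Edges agreed between libraries in few members. The larger of the 2 edge spreads over the libraries had a median of 334 bp in members and 166 bp in narrower regions, and without SAT 2 it was 146 and 98 bp. Members were also wider, with a median of 1119 bp against 511 bp. Spreads in bp, and counts within a fixed number of bp, are therefore not directly comparable. The merged width runs between the outermost edges, so choosing by it can favour regions whose edges differ. Both edges lay within 50 bp in all libraries in 12 members (1.12%), a limit set after the values were seen, and in 768 narrower regions (4.35%). The closest match, within 4 bp, was chr2:98506400-98507487, where scores were 555 in SAT 1, 664 in SAT 2, 630 in VAT 1 and 630 in VAT 2. Another, within 8 bp, lay at chr9:3000028-3001506, and no merged region of that chromosome started before it. The assembled mouse chromosomes begin next to the centromere. There the percentiles were 88.4 in SAT 1, 98.2 in SAT 2, 89.9 in VAT 1 and 89.7 in VAT 2. In the 12 members the median SAT 2 percentile was 96.1, and the other libraries had medians of 96.0, 96.5 and 95.9 (SAT 1, VAT 1, VAT 2). Without them the median of the members was 77.8 in SAT 2 and 88.2, 88.9 and 90.8 in the other libraries. Matching edges required SAT 2 peaks to reach about as far as those of the other libraries. The set was thus chosen partly through SAT 2, and its SAT 2 percentiles are not independent of that choice. Whether the DNA at these positions is unique in the assembly was not tested.

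Most members ranked in the upper part of each list, but less so in SAT 2. The 50th percentile was reached by 98.5% of members in SAT 1, 83.1% in SAT 2, 97.6% in VAT 1 and 99.4% in VAT 2. Among narrower common regions it was reached by 87.3%, 54.7%, 87.1% and 92.5%. A SAT 2 percentile is a rank among only 22845 peaks, so it is not directly comparable with one in a longer list. The median percentile of a member's highest peak was 88.4 in SAT 1, 78.3 in SAT 2, 89.0 in VAT 1 and 90.8 in VAT 2. In narrower common regions it was 80.0, 55.6, 79.9 and 83.1. The lowest, median and highest deposited scores among members were 64, 259 and 619 in SAT 1, and 23, 150 and 711 in SAT 2. They were 60, 297 and 683 in VAT 1 and 45, 325 and 716 in VAT 2. Rank and width come from the same peaks and are not independent measures.

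Rank rose with width up to about the threshold and levelled off there. Over common regions under 250 bp, from 250, from 500 and from 750 bp, the median percentile in the weakest library was 29.4, 38.7, 61.4 and 73.2. Among members it was 76.9 from 1000 bp, 74.4 from 1250 bp and 75.5 from 1500 bp. Across the 1069 members Spearman's rho of width and percentile was -0.03 in SAT 1, -0.01 in SAT 2, -0.05 in VAT 1 and -0.05 in VAT 2. Across the 17665 narrower regions it was 0.40, 0.36, 0.41 and 0.46. Most members spanned a smaller range of widths (quartiles 1047 and 1217 bp, against 375 and 671 bp). A smaller range can by itself lower rho, so these values are not directly comparable. Regions of one library share its depth and are not replicates, so no p is given.

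**Figure D4:**
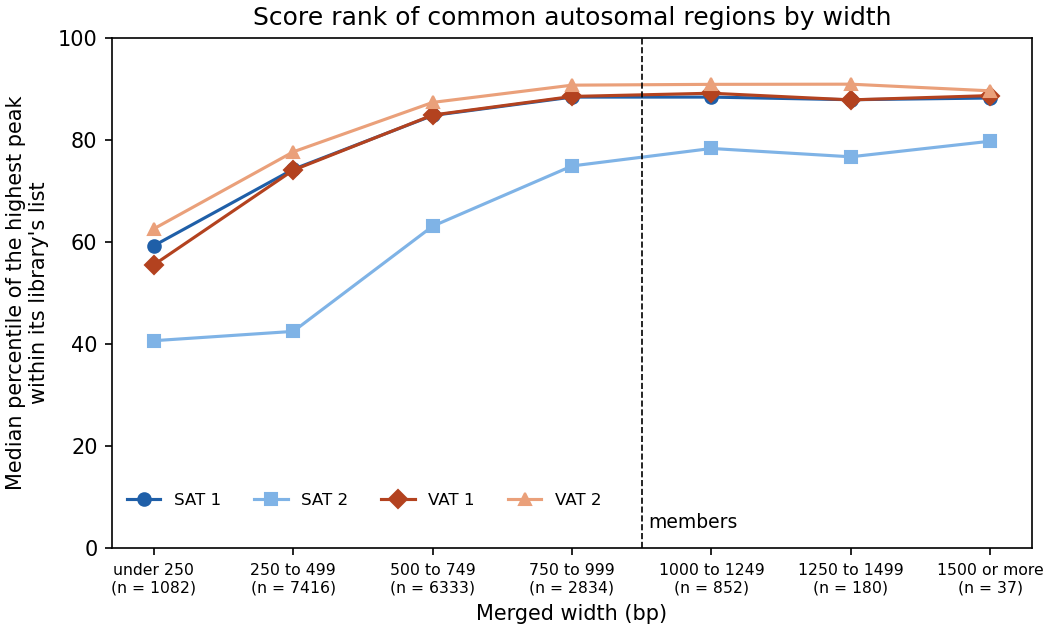
Median score percentile of the highest peak in each library (vertical axis) for common autosomal regions in 7 classes of merged width (horizontal axis), with members to the right of the dashed line. The medians rise up to the class from 750 bp and differ from it by less than 5 points over the members, and SAT 2 lies lowest throughout.

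Members reached the 95th and 99th percentiles more often than narrower regions, but few reached the 99th. The very highest scores of common regions lay in narrower ones, at 2037 in SAT 1, 2391 in SAT 2, 2215 in VAT 1 and 2272 in VAT 2. Members also held several peaks more often, and the highest was taken, which can raise their percentiles. In SAT 1, 38.9% of members and 5.35% of narrower regions had 2 or more peaks. The highest peak reached the 95th percentile in 24.6% of members in SAT 1, 12.1% in SAT 2, 24.9% in VAT 1 and 28.3% in VAT 2, against 14.1%, 5.48%, 14.1% and 15.6% of narrower regions. The 99th percentile was reached by 44 (4.12%), 20 (1.87%), 45 (4.21%) and 47 members (4.40%), against 2.92%, 1.11%, 2.90% and 3.21% of narrower regions. Of the 100 common regions with the highest percentile in their weakest library, 7 were members, and of the 1000 highest, 124 (12.4%). The share of members among all common regions was 5.71%. The 100 highest had a median width of 647.5 bp, against 719.5 bp for the 1000 highest.

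After the member at chr2:22444086-22445904, the highest ranks in the weakest library were held by chr2:98506400-98507487 and chr1:9737847-9738871. The latter had scores of 590 in SAT 1, 392 in SAT 2, 594 in VAT 1 and 683 in VAT 2. Below it came chr17:64680702-64681776 (492, 399, 656 and 716) and chr1:64737087-64738129 (490, 382, 558 and 615). All libraries placed each of these among their top 1%. It was not tested whether their DNA is unique in the assembly. The remaining 5 of the leading 10 lay at chr16:36874653-36875894, chr13:14046287-14047569, chr12:56936940-56937940, chr3:79432441-79433593 and chr10:4521891-4522891. They were 1001 to 1283 bp wide, and their lowest percentiles were between 98.7 and 99.1.

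SAT 2 gave the lowest of the 4 percentiles in 800 members (74.8%), SAT 1 in 116, VAT 1 in 100 and VAT 2 in 53. In narrower common regions SAT 2 was lowest in 13426 (76.0%), so the members were near the background. The lowest percentile of all, named after its values were seen, lay at chr15:6657613-6658746. Its scores were 129 in SAT 1, 23 in SAT 2, 161 in VAT 1 and 228 in VAT 2, and its SAT 2 peak was 152 bp long within a member of 1134 bp. Libraries otherwise ranked the members much alike. Spearman's rho of percentiles across members lay between 0.77 (SAT 2 with VAT 2) and 0.82 (SAT 1 with VAT 1), and the range of percentiles over the 3 longer lists had a median of 6.46. In narrower regions rho lay between 0.65 and 0.83, and that range was 12.1.

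The study set subcutaneous against visceral progenitors, and the members were compared over the 4 libraries. The median percentile of members was 83.4 ± 7.12 in subcutaneous and 89.9 ± 1.33 in visceral libraries (SD, n = 2 each; two-sided exact permutation test, p = 0.333). With 2 libraries against 2 no smaller p is possible, and no difference could be called. The difference of 6.55 was not alike in both pairs of libraries: it was 0.58 between VAT 1 and SAT 1, 12.5 between VAT 2 and SAT 2, 1.52 when SAT 2 was left out and 11.6 when SAT 1 was left out.

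Members took up a larger part of the short SAT 2 list than of the others. They held 2.70% of the peaks and 6.50% of the covered bases of SAT 1, 6.90% and 10.6% of SAT 2, 2.67% and 6.23% of VAT 1, and 2.06% and 6.26% of VAT 2. The depot means of covered bases were 8.55% ± 2.89 and 6.24% ± 0.02 (SD, n = 2 each; exact permutation test, p = 0.333). Visceral minus subcutaneous this was -2.30 percentage points, -0.26 when SAT 2 was left out and -4.34 when SAT 1 was left out. Peaks per member averaged 1.44 in SAT 1, 1.47 in SAT 2, 1.42 in VAT 1 and 1.20 in VAT 2 (visceral minus subcutaneous -0.15, exact permutation test, p = 0.333). Both subcutaneous values were above both visceral ones, but VAT 1 minus SAT 1 was only -0.01, and the difference was -0.03 without VAT 2 and -0.26 without VAT 1. For the median width of the widest peak the depots overlapped: visceral minus subcutaneous was 284.5 bp (exact permutation test, p = 0.667), -6 bp within the replicates numbered 1 and 575 bp within those numbered 2. Without SAT 2 it was 77.5 bp, and without SAT 1 it was 491.5 bp.

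Counted member by member, both visceral percentiles were above both subcutaneous ones in 389 members (36.4%), and the reverse held in 33 (3.09%). Over all common autosomal regions these shares were 32.9% and 2.58%, so the members were near the background. Ranks within a set give every library the same distribution over that set, which by construction brings the numbers in both directions closer together. When percentiles were replaced by ranks among the members in each library, 178 members (16.7%) were higher in visceral and 194 (18.1%) in subcutaneous libraries. With ranks among all common autosomal regions these were 149 (13.9%) and 207 (19.4%) of the members, against 14.8% and 15.3% of all common regions. Without SAT 2, 445 (41.6%) and 275 (25.7%) were called, against 37.2% and 27.0%. Leaving out SAT 1 gave 860 (80.4%) and 78 (7.30%), against 81.4% and 5.26% of all common regions. Without VAT 1 it was 640 (59.9%) and 69 (6.45%), against 57.9% and 5.97%, and without VAT 2 498 (46.6%) and 117 (10.9%), against 45.4% and 10.9%. With each library left out the members thus stayed within 5 percentage points of the background.

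The member with the largest gap in favour of visceral libraries lay at chr14:31528553-31529855. Its scores were 69 in SAT 1, 45 in SAT 2, 147 in VAT 1 and 194 in VAT 2, at percentiles of 30.0, 10.1, 63.7 and 77.0, and the widest peak was 102 bp long in SAT 2 and 1104 bp in VAT 2. The next lay at chr19:47653661-47654665, with scores of 80, 32, 192 and 161. The third was chr11:98010567-98011977, with 100, 81, 230 and 245. In these 3 members the depots were apart by 30.4 to 33.7 percentile points. The other 2 of the leading 5 lay at chr19:36908526-36909618 and chr7:143124289-143125328, with gaps of 25.4 and 23.2. These 5 were picked by this gap, which is therefore given with no test.

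Gaps in favour of subcutaneous libraries were much smaller by this measure. It uses percentiles in whole lists, where SAT 2 was lowest in 74.8% of members. A gap in this direction needs SAT 2 above both visceral libraries, so the sizes in both directions cannot be read as a depot difference. The largest, of 7.03 points, was at chr4:118219817-118221334, the member with matching edges, whose percentiles were 96.7 in SAT 1, 99.1 in SAT 2, 89.7 in VAT 1 and 85.8 in VAT 2. Next came chr18:34936439-34937467, with 88.7, 87.2, 79.5 and 81.6, and chr16:94790578-94791681, with 97.3, 88.2, 83.3 and 82.1. The last 2 of the 5 were chr7:26022597-26023740 and chr7:109398370-109399531, with gaps of 4.30 and 4.15. All 5 ranked above the 79th percentile in every library, so they were strong in both depots.

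Members lay on every autosome, and their share of the common regions differed between chromosomes by less than 2-fold. It was highest on chromosome 1, where 92 of 1272 common regions were members (7.23%, 95% Clopper-Pearson interval 5.87% to 8.80%). Chromosome 3 followed with 68 of 987 (6.89%, 5.39% to 8.65%) and chromosome 18 with 41 of 600 (6.83%, 4.95% to 9.16%). It was lowest on chromosome 11, with 56 of 1298 (4.31%, 3.28% to 5.57%), chromosome 4, with 57 of 1206 (4.73%, 3.60% to 6.08%), and chromosome 2, with 72 of 1513 (4.76%, 3.74% to 5.96%). The intervals of chromosomes 1 and 11 lie apart from each other, while those of most pairs overlap. They cover counting error only, and 19 chromosomes were looked at.

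**Figure D5:**
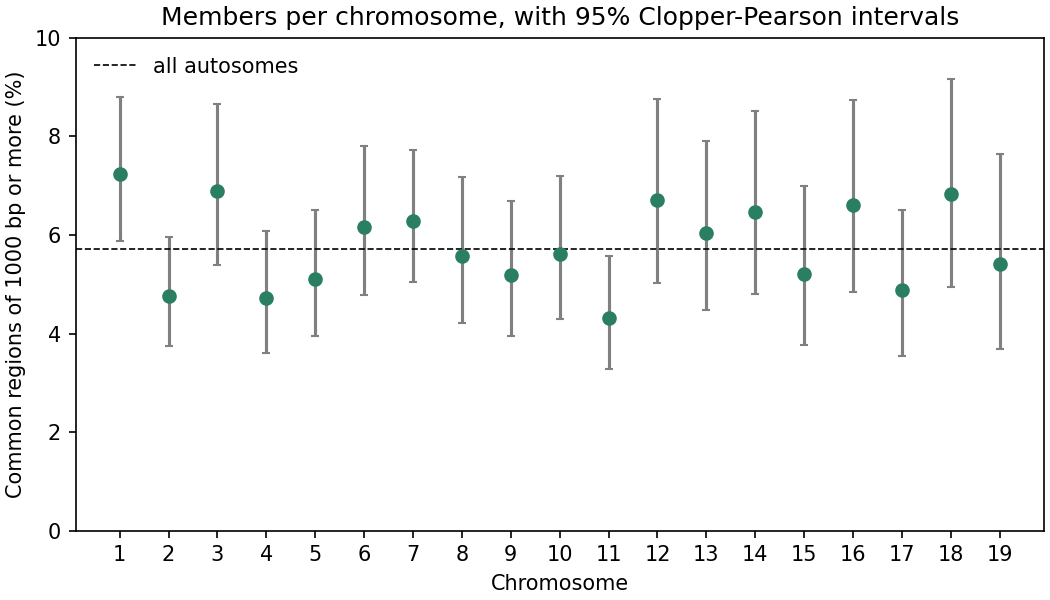
Percentage of common regions that are members (vertical axis) on each autosome (horizontal axis), with 95% Clopper-Pearson intervals and the value over all autosomes (5.71%) as a dashed line. Chromosome 1 lies highest at 7.23% and chromosome 11 lowest at 4.31%.

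Most autosomal windows of 1 Mb that held a member held only 1. Whether members cluster more than other common regions was not tested. Of the 2376 autosomal windows of 1 Mb with any merged region, 1597 held no member, 567 held 1, 151 held 2, 47 held 3, 11 held 4 and 3 held 5. The 3 fullest windows were chromosome 12 from 70 to 71 Mb, where 5 of 21 common regions were members, chromosome 7 from 134 to 135 Mb (5 of 41) and chromosome 10 from 80 to 81 Mb (5 of 45). The last is also rich in common regions of any width, of which no window held more than 48. The places after these are tied among the 11 windows with 4. The median distance from a member to the nearest other member was 0.512 Mb, and 76 members (7.11%) had another within 50 kb.

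The closest pair of members, 5279 bp apart, lay in that window of chromosome 10 (chr10:80638757-80639818 and chr10:80645098-80646122). They ranked very differently: the first had percentiles of 36.1 in SAT 1, 14.6 in SAT 2, 49.5 in VAT 1 and 52.8 in VAT 2, and the second 95.1, 81.3, 92.7 and 91.4. The next pair, 9908 bp apart, lay at chr19:46119332-46120721 and chr19:46130630-46132103. Its percentiles were 80.7, 35.1, 79.8 and 78.1 for the first and 84.8, 52.7, 84.3 and 91.6 for the second.

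Members stood in emptier surroundings than narrower common regions. The nearest other merged region was a median of 8.88 kb away from a member and 3.77 kb from a narrower region. Within 50 kb of its centre, a member had a median of 4 other merged regions, and a narrower region had 7. Another common region lay within 10 kb of 178 members (16.7%) and of 5966 narrower regions (33.8%). The change was gradual over width: the median distance to the nearest merged region was 2.41 kb for common regions from 250 bp, 4.95 kb from 500 bp, 7.33 kb from 750 bp, 8.77 kb from 1000 bp and 10.5 kb from 1250 bp. For the 37 members from 1500 bp it was 8.14 kb. The part of the merging in this was not tested. Regions are not replicates, and no test was made of these differences.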

How the data were processed

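Per the submitters' processing notes, Bowtie2 and MACS2 were used with mm9, and no versions were named. Aligner and caller options, the treatment of duplicates, any shift of read ends and any repeat filter were not given in those notes or in the labels. Per the labels' protocols, nuclei were released with detergent, cut with the Nextera transposase and amplified with Nextera indices. The authors deposited 1 peak list per library, so peaks were not called on pooled libraries. Each deposited peak has a score (column 5), a whole number of 20 or more whose scaling no header states. It was used only to rank peaks within a list, as a mid-rank percentile. Depth is unknown, and the number of peaks limits how far lists can be compared.

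Groups and replicate numbers came from the sample titles. Peaks sharing at least 1 bp were merged, and all 83319 merged regions were identical to those of bedtools 2.31.1. Core and covered bases were counted per base. The merging was also run on simulated lists, in which a single peak always spanned each planted region. Regions joined only by a chain of overlaps were not simulated. Values per library were compared by a two-sided exact permutation test, and shares have 95% Clopper-Pearson intervals for counting error only. Computations used scipy 1.17.1, pandas 2.3.3 and numpy 2.4.6 under Python 3.11.15.

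The members, the gene lists and the rule for named regions were chosen with earlier results of these data known. The rule took the 10 widest members, the 10 highest in their weakest library, the 5 with the longest core, the 5 widest with 1 peak per library, the 5 with most peaks, the 5 with the largest depot gap each way, 3 regions on each side of the threshold, 5 windows of 1 Mb and the 3 highest and 3 lowest chromosomes. The gene lists were not analysed here, since the gene table at hand follows another build.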

Additional observations from a re-analysis of the deposited data

How the results depend on the processing

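The number of members (1069) became 562 if overlaps had to be reciprocal at 50%, and 2842 if peaks up to 500 bp apart were joined. It was 3903, 37 and 2 with width minima of 750, 1500 and 2000 bp, 20 with the width covered in all 4 libraries and 11 with a single wide peak in every library. Leaving out 1 library gave 595 (without VAT 2) to 1067. With equal-length lists it was 922, with the top 50% of each list 816, and with X and Y 1091. With a minimum of 1500 bp, chromosomes 18 and 11 held 0% of the members, chromosome 3 13.5%, chromosome 1 5.41%, chromosome 4 8.11% and chromosome 2 10.8%, and chromosome 1 held 6.86% with peaks up to 500 bp apart joined, against 8.61%. The visceral minus subcutaneous difference in peaks per member (-0.15) turned to 0.0135 from 1500 bp, and the other depot differences kept their direction in the settings run. Counts of members with separate depots (389 and 33) were 178 and 194 by rank among members, and 445 to 860 and 69 to 275 with 1 library left out. With the replicate block the differences were the same by construction (6.55 for the percentile, p = 0.5 by an exact permutation of signs). Nothing in the labels says that a number pairs libraries. Deviations of same-numbered libraries correlated at -0.155 across members, and the crossed pairing, added after seeing this, gave 0 calls, as did the block, since 2 pairs cannot give a p below 0.5. The planned count at gene starts was not run. Apart from fewer libraries and other width minima, the cause of these changes was not tested.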

Other observations

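The sex chromosomes were outside the rule for members. On chromosome X 18 of 538 common regions reached 1000 bp (3.35%, 95% Clopper-Pearson interval 1.99% to 5.24%), and on chromosome Y 4 of 78 (5.13%, 1.41% to 12.6%), against 5.71% on the autosomes. The widest lay at chrY:2781325-2783010, with scores of 64 in SAT 1, 62 in SAT 2, 75 in VAT 1 and 67 in VAT 2. On X it lay at chrX:121307201-121308844, with scores of 145, 110, 120 and 138. The next on X, at chrX:122712006-122713453, ranked higher, with scores of 283, 246, 330 and 262, and its widest peak was 1157 bp or longer in every library.

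Of the wide autosomal regions without a peak in all libraries, 1 lacked only VAT 2, the library with the longest list. It lay at chr13:45661954-45663771. Its single peaks were 1809 bp long in SAT 1, 1818 bp in SAT 2 and 1799 bp in VAT 1, with edges within 10 bp, and scores of 344, 374 and 310 (percentiles 94.9, 99.4 and 90.1). The nearest VAT 2 peak was 1.67 kb away. A further region, at chr3:153865107-153866142, had peaks only in SAT 1 (score 186) and VAT 1 (score 223). Both were named after their values were seen.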
